A study of Mus musculus with 3 samples.

Results

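The 8 receptors that guide activated T cells along chemokine gradients, Cxcr3, Cxcr4, Cxcr6, Ccr2, Ccr6, Ccr8, Ccr9 and Cx3cr1, were chosen by name and make up 8 of the 18029 genes counted in splenic T cells of mice with graft-versus-host disease (GVHD). Their UMIs (unique molecular identifiers, 1 per captured RNA molecule) were summed per pool of mice over CD4+ cells, over CD8+ cells and over each cluster of cells, and all 8 were high enough to be tested in both lineages. B6D2F1 recipients received B6 bone marrow and B6 T cells, to which TEa T cells, a TCR transgenic CD4+ line that recognizes a recipient peptide, had been added. They were given saline, the calcineurin inhibitor cyclosporine (CSA) at 5 mg/kg, or the same drug at 50 mg/kg, every day from day 0 to day 6, and spleens were taken on day 7 from 6 mice of each group. Spleens of 2 mice were combined, so that each group had 3 pools, marked by hashtag antibodies, and the sorted CD4+ and CD8+ cells of 1 group shared 1 droplet capture. Treatment and capture therefore cannot be told apart, and the p-values below measure the spread between pools of a capture. All groups were transplanted, and no cells from healthy mice were measured.

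Chemokine receptors are G protein-coupled receptors at the cell surface. A ligand released in a tissue binds its receptor, G proteins activate kinases and small GTPases, and integrins then hold the cell at the vessel wall or let it crawl into the tissue. CXCR3 binds interferon-induced ligands and CCR2 binds ligands of inflamed tissue, and both are known on effector T cells in GVHD target organs. CXCR6 binds CXCL16 and is found on resident and effector cells, CX3CR1 binds fractalkine and marks cytotoxic effector cells, and CXCR4 binds CXCL12 of bone marrow and lymphoid stroma. CCR9 binds CCL25 and leads cells to the small intestine, CCR6 binds CCL20 and is typical of Th17 cells, and CCR8 binds CCL1 and is typical of tissue Tregs. CSA keeps calcineurin from activating the transcription factor NFAT.

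The genes lie on few chromosomes (GRCm38). Cx3cr1 at chr9:119901616-120069879 (minus strand), Ccr8 at chr9:120092114-120094906, Ccr9 at chr9:123678439-123784330, Cxcr6 at chr9:123806475-123811760 and Ccr2 at chr9:124101950-124113557 share chromosome 9, the last 4 on the plus strand. Cxcr4 is at chr1:128588199-128592293 and Cxcr3 at chrX:101731535-101734269, both on the minus strand, and Ccr6 is at chr17:8236043-8257141 on the plus strand. Cxcr6 lies within Fyco1, and the annotated spans of Ccr9 and Cx3cr1 cover other genes, Lztfl1 and Wdr48 among them. Whether reads were counted by strand is not given in the sources used here, so reads shared with such neighbours cannot be told apart.

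Promoter windows of 250 bases before the start site were read for all 8 receptors (RefSeq, GRCm38.p6; 9 windows, because Ccr6 has 2 start sites). The windows end at RefSeq start sites, which can differ from the annotated gene ends above. Those of Cx3cr1 and Ccr9 and the Ccr6 window at chr17:8242276 thus lie wholly inside the gene span. That of Ccr2 lies mostly inside it, and those of Cxcr3, Ccr8 and Cxcr6 reach into it in part. The windows of Ccr2, Cxcr6 and Cx3cr1 are shown as examples of a receptor that rose, one whose direction depends on scaling and one that fell. Capitals mark GGAAA or its reverse complement TTTCC, the core of NFAT sites, and CACCC or its reverse complement GGGTG, the core of KLF sites. The 3 windows are chr9:124101933-124102182 (plus strand) for Ccr2, chr9:123806227-123806476 (plus strand) for Cxcr6 and chr9:120068297-120068546 (minus strand) for Cx3cr1.
Ccr2: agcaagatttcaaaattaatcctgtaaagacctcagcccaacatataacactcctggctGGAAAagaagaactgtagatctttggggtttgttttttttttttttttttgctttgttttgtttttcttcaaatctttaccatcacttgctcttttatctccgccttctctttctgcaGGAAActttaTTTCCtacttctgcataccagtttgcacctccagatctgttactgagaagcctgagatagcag
Cxcr6: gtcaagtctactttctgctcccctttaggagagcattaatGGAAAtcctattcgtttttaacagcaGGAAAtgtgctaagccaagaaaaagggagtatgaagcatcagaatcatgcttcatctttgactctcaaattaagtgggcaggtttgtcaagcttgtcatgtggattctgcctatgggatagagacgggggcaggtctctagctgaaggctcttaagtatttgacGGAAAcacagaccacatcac
Cx3cr1: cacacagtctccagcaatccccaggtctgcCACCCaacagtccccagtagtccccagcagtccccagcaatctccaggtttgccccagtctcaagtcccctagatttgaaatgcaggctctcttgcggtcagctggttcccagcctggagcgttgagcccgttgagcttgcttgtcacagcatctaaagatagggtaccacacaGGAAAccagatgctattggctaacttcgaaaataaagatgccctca
Ccr2 held the NFAT core at -191, -73 and -63 from the start site, Cxcr6 at -210, -184 and -20, and Cx3cr1 once, at -46. Over all receptors, 6 of 9 windows held this core, as did 55.6% of 32851 mouse promoter windows. The KLF core was in 4 of 9 windows against 52.0% of all windows, and the T-box motif AGGTGTGA (both strands) was in 0 of 9 against 1.1%. A match describes letters only and is not a bound site.

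Cells marked TEa were left out, which kept 20924 of 21204 cells. The median cell held 3097, 4396 and 5979.5 UMIs in CD4+ cells of the saline, 5 mg/kg and 50 mg/kg groups, and 4108, 6121.5 and 7183 UMIs in CD8+ cells. Levels are given in CPM, the UMIs of a gene per 1000000 UMIs of the pool. Changes are log2 fold changes from edgeR with TMM scaling, ± standard error (SE), with p adjusted over all genes tested. Under plain library size scaling the median gene moved by -0.45 in CD4+ and -0.53 in CD8+ cells at 50 mg/kg, so a receptor with a level CPM has a positive change on the TMM scale, and each receptor whose direction depends on this choice is named as such. Cd4 was at 0 in CD8+ cells and Cd8a at 0 in CD4+ cells, while the 3 CD8 lineage markers together were at 282 to 292 CPM in CD4+ saline pools and 134 to 144 CPM at 50 mg/kg, against 2074 to 3602 CPM in CD8+ pools with saline or 50 mg/kg, and the 3 CD4 lineage markers at 4.07 to 27.8 CPM in CD8+ pools. Summed myeloid markers were between 330 and 456 CPM in the pools of all groups, erythroid markers reached 25 to 49 CPM at 50 mg/kg against at most 18 CPM elsewhere, and the part of either in the results was not tested. Between captures, 218 of 20986 barcode sequences were shared.

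At 50 mg/kg Ccr2 rose and Cx3cr1, Ccr8, Ccr6 and Cxcr4 fell in both lineages, whatever the scaling. In CD4+ cells Ccr2 and Cxcr3 rose and Cxcr4, Ccr6, Ccr8, Ccr9 and Cx3cr1 fell, so that 7 of 8 passed the test, while 70.5% of all 10568 genes tested did (34.7% higher, 35.8% lower). In CD8+ cells all 8 passed, 4 higher (Ccr2, Cxcr3, Cxcr6 and Ccr9) and 4 lower (Cxcr4, Ccr6, Ccr8 and Cx3cr1), against 74.0% of 10841 genes (37.1% higher, 36.9% lower). Counts of calls this close to the background say little about the receptors, and the sizes carry the description. Under library size scaling 15.1% of all genes were higher and 59.0% lower in CD4+ cells, and 15.6% and 62.7% in CD8+ cells. Under that scaling Cxcr6 was lower in both lineages, Cxcr3 in CD4+ cells and Ccr9 in CD8+ cells did not pass, and Ccr2 and the receptors that fell kept their direction. The median change over the 8 receptors was -1.33 in CD4+ and -0.37 in CD8+ cells, while that of all genes was -0.01 and 0.00.

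**Figure D1:**
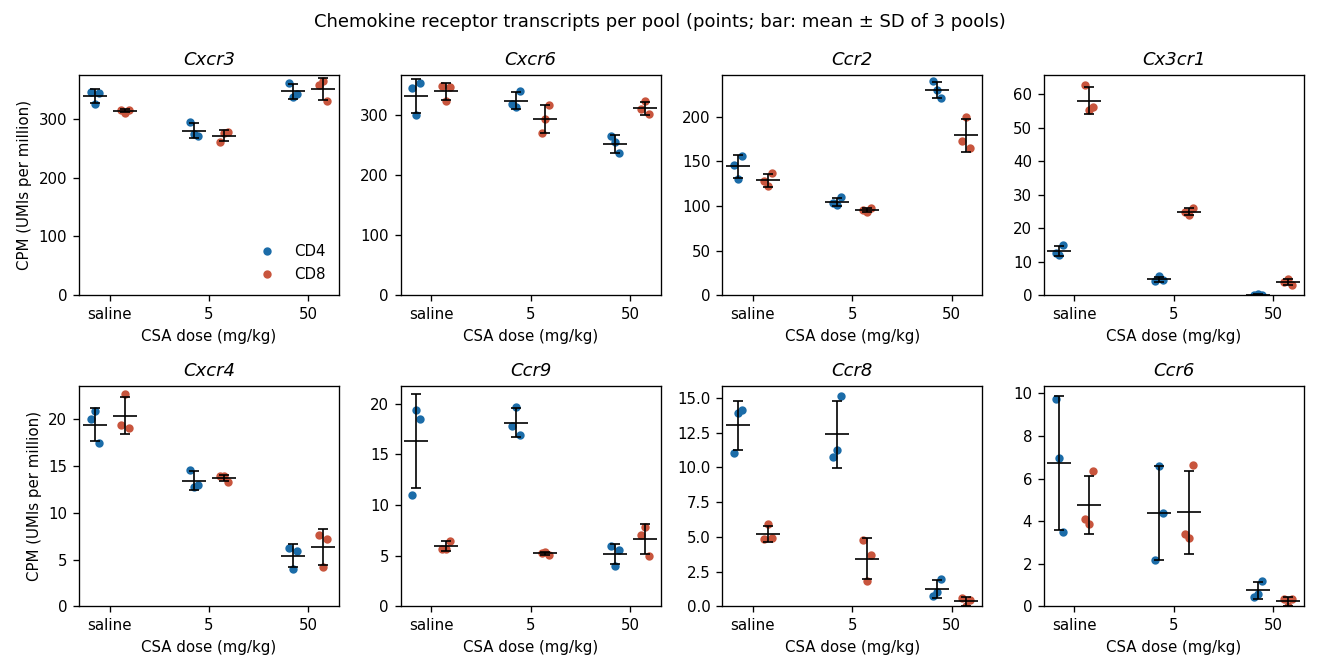
Level of each receptor in CPM (y axis, linear, from 0) in CD4+ (blue) and CD8+ (red) cells with saline, 5 mg/kg and 50 mg/kg CSA (x axis); points are pools and bars are the mean ± SD of 3 pools. Ccr2 was highest at 50 mg/kg in both lineages, and Cx3cr1, Ccr8, Ccr6 and Cxcr4 were lowest there; the group means of Cxcr3 and Cxcr6 stayed between 252 and 350 CPM.

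Ccr2, the receptor for CCL2, was the only one of the 8 receptors past the threshold as higher at 50 mg/kg in both lineages and under both scalings. CD4+ cells held 146, 131 and 156 CPM in the saline pools, 104, 101 and 110 CPM at 5 mg/kg and 240, 230 and 221 CPM at 50 mg/kg. CD8+ cells held 127, 122 and 137 CPM, then 95.4, 93.1 and 98.0 CPM, and 172, 200 and 165 CPM. In CPM the 3 groups did not overlap in either lineage, with the lowest values at 5 mg/kg and the highest at 50 mg/kg. On the TMM scale the saline and 5 mg/kg pools overlapped, with means of 120 and 112 in CD4+ and 103.3 and 102.8 in CD8+ cells. The rise from saline to 50 mg/kg was 1.11 ± 0.06 in CD4+ cells (edgeR adjusted p = 2.99e-13) and 1.00 ± 0.06 in CD8+ cells (edgeR adjusted p = 7.38e-11), or 0.67 and 0.47 under library size scaling. Per cell, Ccr2 went from 0.534 to 1.57 UMIs in CD4+ and from 0.617 to 1.43 UMIs in CD8+ cells. The median UMIs of a cell rose as well, from 3097 to 5979.5 in CD4+ and from 4108 to 7183 in CD8+ cells. Depth per cell, more cells of a type and more RNA per cell cannot be told apart in these values.

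Cx3cr1, the fractalkine receptor of cytotoxic effector cells, fell at both doses in both lineages. CD8+ cells held 62.7, 55.3 and 56.3 CPM in the saline pools, 25, 23.99 and 26.0 CPM at 5 mg/kg and 4.07, 4.85 and 3.14 CPM at 50 mg/kg. The groups stepped down with dose and did not overlap. The fall was 0.78 ± 0.09 on the log2 scale at 5 mg/kg (edgeR adjusted p = 1.08e-06) and 3.34 ± 0.12 at 50 mg/kg (edgeR adjusted p = 4.15e-14). In CD4+ cells the pools held 12.8, 11.9 and 15.1 CPM, then 4.39, 5.73 and 4.55 CPM, and 0, 0.296 and 0.132 CPM. That is 200 UMIs with saline and 3 UMIs at 50 mg/kg, a ratio of CPM of 92.5 with a 95% counting interval of 31.2 to 452 (edgeR adjusted p = 1.75e-11). The summed CPM of 5 NK cell markers in CD4+ cells was 325 to 468 with saline, 296 to 373 at 5 mg/kg and 37 to 92 at 50 mg/kg. In CD8+ cells it was 1217 to 1623, 1645 to 2013 and 1105 to 1283. The sum was thus lower with Cx3cr1 at 50 mg/kg in CD4+ cells, but higher at 5 mg/kg in CD8+ cells. The relation was not tested.

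Ccr8 and Ccr6, the receptors typical of tissue Tregs and of Th17 cells, did not pass the test at 5 mg/kg and were nearly absent at 50 mg/kg. Ccr8 in CD4+ cells was 11.01, 13.9 and 14.1 CPM in the saline pools, 10.7, 11.2 and 15.1 CPM at 5 mg/kg and 0.764, 1.04 and 1.98 CPM at 50 mg/kg. The UMIs of Ccr8 went from 199 to 27 in CD4+ cells, 10.2-fold lower as CPM (95% counting interval 6.82 to 15.9), and from 117 to 10 in CD8+ cells, 14.9-fold lower (7.85 to 32.0). In CD4+ cells the saline and 5 mg/kg pools of Ccr8 overlapped. In CD8+ cells they were at 4.86 to 5.89 and 1.85 to 4.78 CPM, without overlap in CPM but with overlap on the TMM scale. The pools at 50 mg/kg lay below both in each lineage. Ccr6 was sparser, with 9.76, 6.95 and 3.49 CPM in the saline pools of CD4+ cells, 2.20, 6.58 and 4.39 CPM at 5 mg/kg and 0.458, 0.592 and 1.18 CPM at 50 mg/kg. Its UMIs went from 97 to 16 in CD4+ cells (8.41-fold lower, 4.93 to 15.3) and from 107 to 7 in CD8+ cells (19.5-fold lower, 9.16 to 49.7). The edgeR adjusted p at 50 mg/kg was 5.65e-09 and 3.12e-06 for Ccr8 and 4.00e-05 and 4.44e-06 for Ccr6, in CD4+ and CD8+ cells respectively. Summed Th17 markers were at 16.9 to 21.3 CPM in CD4+ saline pools and 0.444 to 0.611 CPM at 50 mg/kg, and summed Treg markers at 327 to 346 and 115 to 129 CPM. The Treg sum does not count Tregs, since the Treg cluster (C11) went from 0.469% to 1.92% of CD4+ cells. Foxp3 in C11 went from 56 to 166 UMIs as its cells went from 20 to 59, and from 801 to 524 as CPM. In the other CD4+ clusters Il2ra went from 99.0 to 37.2 CPM, Ikzf2 from 115 to 8.65, Ctla4 from 103 to 57.8 and Foxp3 from 4.47 to 1.12 CPM. The part of these markers in the fall of Ccr6 and Ccr8 was not tested.

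Cxcr4, the CXCL12 receptor, stepped down with dose in CPM in both lineages. In CD4+ cells it was 20.03, 20.8 and 17.4 CPM in the saline pools, 14.6, 12.7 and 13.0 CPM at 5 mg/kg and 6.26, 3.998 and 5.93 CPM at 50 mg/kg. CD8+ cells held 19.4, 22.7 and 19.1 CPM, then 13.9, 13.9 and 13.3 CPM, and 7.66, 4.15 and 7.25 CPM. The log2 change at 50 mg/kg was -1.40 ± 0.16 in CD4+ cells (edgeR adjusted p = 1.27e-07) and -1.14 ± 0.16 in CD8+ cells (edgeR adjusted p = 3.12e-06). The step at 5 mg/kg did not pass on the TMM scale, at -0.18 ± 0.15 in CD4+ cells, and passed at -0.54 under library size scaling. Among cells without a single UMI of any myeloid or B cell marker, the CD8+ change at 50 mg/kg was -0.26 and no longer past the threshold, but 83.3% to 91.1% of CD8+ cells in the pools at 50 mg/kg held such a UMI and were left out there.

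Ccr9, the receptor for the gut chemokine CCL25, behaved differently in the lineages. CD4+ cells held 11.01, 19.4 and 18.5 CPM in the saline pools, 17.8, 19.7 and 16.9 CPM at 5 mg/kg and 5.96, 3.998 and 5.53 CPM at 50 mg/kg. CD8+ cells held 5.62, 5.64 and 6.48 CPM, then 5.24, 5.37 and 5.11 CPM, and 7.06, 7.85 and 4.98 CPM. The pools at 50 mg/kg were thus the lowest in CD4+ cells and overlapped the saline pools in CD8+ cells. In CD4+ cells Ccr9 fell by 1.25 ± 0.20 on the log2 scale (edgeR adjusted p = 9.43e-06). In CD8+ cells it was 0.67 ± 0.18 higher on the TMM scale (edgeR adjusted p = 0.00283) and 0.14 higher, not past the threshold, under library size scaling.

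The group means of Cxcr3 and Cxcr6 lay between 252 and 350.1 CPM at every dose, and scaling changed the call or the direction of both in CD4+ cells and of Cxcr6 in CD8+ cells at 50 mg/kg. Cxcr3, the receptor for interferon-induced chemokines, was 346, 325 and 344 CPM in CD4+ saline pools, 295, 274 and 270 CPM at 5 mg/kg and 360, 337 and 341 CPM at 50 mg/kg. Its CD8+ pools held 315, 310 and 314 CPM, then 260, 275 and 277 CPM, and 357, 364 and 329 CPM. In CPM the pools at 5 mg/kg were lowest in both lineages, and those at 50 mg/kg overlapped saline in CD4+ cells and lay above it in CD8+ cells. The rise of Cxcr3 at 50 mg/kg was 0.47 ± 0.04 in CD4+ cells (edgeR adjusted p = 2.79e-09), but 0.03 and not past the threshold under library size scaling, and 0.69 ± 0.04 in CD8+ cells (edgeR adjusted p = 5.24e-11), or 0.16 under that scaling. Cxcr6, the CXCL16 receptor, was 344, 300 and 353 CPM in CD4+ saline pools, 318, 313 and 340 CPM at 5 mg/kg and 265, 255 and 236 CPM at 50 mg/kg. CD8+ cells held 348, 324 and 346 CPM, then 269, 294 and 316 CPM, and 309, 323 and 301 CPM. The change at 50 mg/kg in CD4+ cells was 0.04 ± 0.06 (95% interval -0.07 to 0.15, edgeR adjusted p = 0.544) with TMM and -0.40, past the threshold, with library size scaling. In CD8+ cells it was 0.40 ± 0.05 with TMM (edgeR adjusted p = 8.16e-07) and -0.13 with library size scaling, both past the threshold in opposite directions.

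At 5 mg/kg the calls were fewer than at 50 mg/kg and depended on the scaling, except for Cx3cr1. Cx3cr1 fell in both lineages at this dose, by 1.08 ± 0.21 on the log2 scale in CD4+ cells (edgeR adjusted p = 0.000202) in addition to the fall in CD8+ cells above. Cxcr6 was 0.32 ± 0.06 higher in CD4+ cells (edgeR adjusted p = 7.33e-05) and 0.22 ± 0.05 in CD8+ cells (edgeR adjusted p = 0.00115) with TMM, but at -0.04 and -0.20 with library size scaling. Cxcr3 in CD8+ cells was at 0.22 ± 0.04 (edgeR adjusted p = 0.000275) and -0.21 under the same 2 scalings, and Ccr9 in CD4+ cells was at 0.47 ± 0.17 (edgeR adjusted p = 0.0221), a call lost under library size scaling (0.11), with DESeq2 (0.49), without saline pool 1 (0.29) and without 5 mg/kg pool 2 (0.41). So 3 of 8 receptors passed in each lineage, against 51.7% of all genes in CD4+ and 60.2% in CD8+ cells, and under library size scaling 5 passed in CD8+ cells. In CPM, the pools of Ccr2, Cxcr3 and Cxcr4 at 5 mg/kg lay below the saline pools in both lineages. Between 50 and 5 mg/kg, all 8 passed in CD4+ cells, 2 higher (Ccr2 1.21, Cxcr3 0.39) and 6 lower, where 41.2% of genes did (19.9% higher, 21.3% lower). In CD8+ cells 7 passed, 3 higher and 4 lower, where 41.0% of genes did (20% higher, 21% lower), and Ccr9 was at 0.43 (edgeR adjusted p = 0.087) and passed at 0.61 without 50 mg/kg pool 3. Ccr2 in CD4+ cells at 5 mg/kg was -0.10 and not past the threshold, but passed at -0.17 without saline pool 2.

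CD4+ and CD8+ cells of the same pools were then compared in 1 fit with pool as a block. With saline, Cx3cr1 was higher in CD8+ cells by 2.14 ± 0.10 (edgeR adjusted p = 5.21e-15), while Ccr9 (-1.45 ± 0.17, edgeR adjusted p = 1.95e-07), Ccr8 (-1.29 ± 0.21, edgeR adjusted p = 1.79e-05) and Ccr2 (-0.14 ± 0.05, edgeR adjusted p = 0.040) were lower. The other 4 receptors did not pass, with intervals of -0.11 to 0.32 for Cxcr4, -0.160 to -0.0045 for Cxcr3, -0.02 to 0.14 for Cxcr6 and -1.02 to 0.21 for Ccr6. That makes 4 of 8 past the threshold against 40.4% of 11001 genes. At 5 mg/kg 3 passed (Cx3cr1 2.42, Ccr8 -1.86, Ccr9 -1.72; background 34.3%) and at 50 mg/kg 5 did (Cx3cr1 4.73, Cxcr6 0.40, Cxcr3 0.11, Ccr2 -0.27, Ccr8 -1.77; background 30.4%). These fits were sensitive to single pools for small differences. Ccr2 with saline was not past the threshold without any 1 of the saline pools (-0.12, -0.17 and -0.12) or without 5 mg/kg pool 1 or 2 (-0.13 each). At 50 mg/kg Cxcr3 was lost without pool 1 (0.12) or 2 (0.07) of that group, and Ccr8 without pool 2 (-1.38) or 3 (-1.48).

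The change from saline to 50 mg/kg itself differed between the lineages for 4 receptors, with 19.8% of all genes past the same test. Ccr9 differed by 1.88 ± 0.26 (CD8+ minus CD4+, edgeR adjusted p = 9.05e-06), with the fall in CD4+ cells. In CD8+ cells Ccr9 was not lower as observed, but with cluster shares fixed at those of the saline pools its pools were at 4.92, 5.19 and 4.21 CPM, all below the saline pools (mean 5.95 CPM, log2 ratio -0.32), and with the shares of all 9 pools the ratio was 0.17. The saline shares gave 31.5% of the weight to the cycling Cd226hi cluster (C4), which held 0 Ccr9 UMIs in 20 cells at 50 mg/kg. Cx3cr1 differed by 2.59 ± 0.57 (edgeR adjusted p = 0.00177), a fall that was deeper in CD4+ cells, where 3 UMIs remained. Cxcr6 differed by 0.34 ± 0.05 (edgeR adjusted p = 6.23e-05) and Cxcr3 by 0.19 ± 0.05 (edgeR adjusted p = 0.0137). The call of Cxcr3 was lost without saline pool 1 or 3 (0.18 each), without 50 mg/kg pool 2 (0.15), under library size scaling (0.13) and with DESeq2 (0.21). For Ccr2 (-0.13 ± 0.07), Cxcr4 (0.23 ± 0.19), Ccr8 (-0.48 ± 0.59) and Ccr6 (-1.12 ± 0.90) the difference did not pass. At 5 mg/kg 0 of 8 receptors passed with edgeR, against 3.65% of all genes, and 1 of 8, Cxcr6 at -0.14 ± 0.06, had an unadjusted p under 0.05, while DESeq2 gave 0 of 8 as well.

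**Figure D2:**
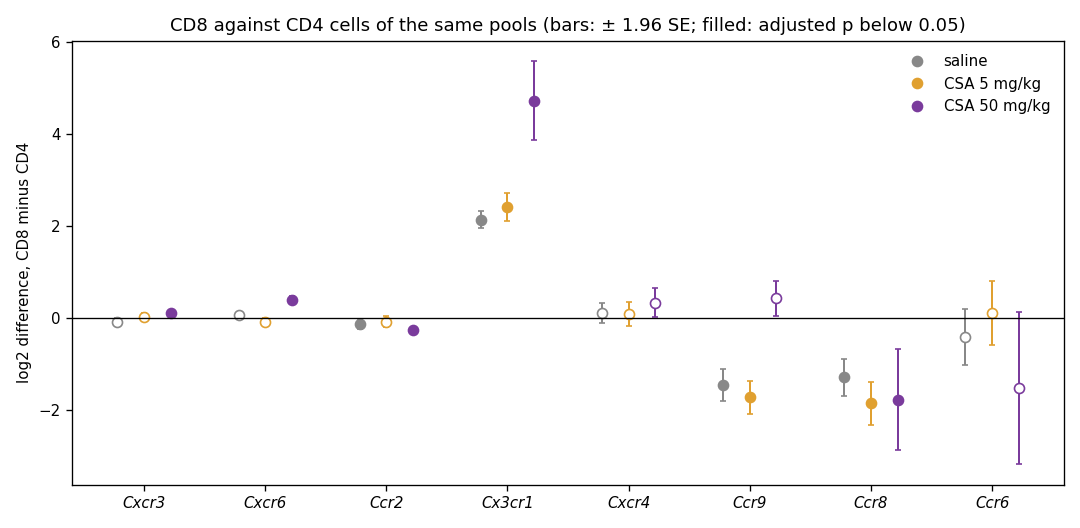
Log2 difference of CD8+ minus CD4+ cells (y axis) for each receptor (x axis) in each treatment group. Points are edgeR estimates from the joint fit with pool as a block and bars are 95% intervals. Ccr9 moved from -1.45 with saline to 0.43 at 50 mg/kg and Cx3cr1 from 2.14 to 4.73, while Cxcr4 lay between 0.09 and 0.33.

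Levels in the clusters of the deposited annotation are a description, because clusters were made from the same cells. Cluster names are those of the study, matched by cell number. Orders are given among clusters with at least 10 cells in each of 2 or more pools, which leaves out the Treg (C11) and Th17 (C12) clusters of CD4+ cells. Among these clusters in saline CD4+ cells, Ccr2 and Cxcr6 shared an order, with the Cd226hi effector cells (C0) at the top for Ccr2 (310 ± 5.39 CPM, SD, n = 3) and Cxcr6 (648 ± 46.0 CPM), followed by Cd226lo effector cells (C1; 281 ± 11.2 and 541 ± 38.8 CPM) and the second cycling effector cluster (C5; 225 ± 31.2 and 458 ± 19.2 CPM), each step beyond the spread. Both were low in follicular helper cells (C4; 18.8 ± 6.86 CPM Ccr2 and 53.3 ± 4.97 CPM Cxcr6). Cxcr3 had another order, with its highest level in C4 (523 ± 32.5 CPM), within the spread of the Isg15hi cells (C10; 420 ± 134 CPM), and its lowest in naive cells (C9; 68.1 ± 61.5 CPM). Cxcr4 was also highest in C4 (47.0 ± 5.68 CPM) and in the cycling Cd226hi cells (C6; 38.2 ± 9.55 CPM), which did not differ beyond their spread and together held 89 and 103 of its 292 UMIs. Cx3cr1 was highest in C5 (48.05 ± 15.9 CPM). The clusters left out held 258 (C11) and 232 CPM (C12) of Ccr2, 100.2 and 647 CPM of Cxcr6 and 572 and 182 CPM of Cxcr3, so that C12 was level with C0 for Cxcr6 and C11 above C4 for Cxcr3, from 20 and 30 cells.

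In saline CD8+ cells, Cd226hi effector cells (C0) led again for Ccr2 (297 ± 4.43 CPM) and Cxcr6 (581 ± 23.9 CPM). Cx3cr1 was highest in C3, the second cycling effector cluster (108 ± 11.9 CPM), within the spread of C0 (91.7 ± 22.96 CPM). Ccr6 was close to a single-cluster gene, with 47.4 ± 9.04 CPM in the Tcf7hi cells (C5) and 5.45 ± 9.44 CPM in the next cluster, so that C5 held 74 of 107 UMIs. The same Tcf7hi cells had the highest Cxcr3 (428 ± 20.4 CPM, within the spread of C0 at 393 ± 47.8 CPM) and low Cxcr6 (89.1 ± 10.5 CPM) and Ccr2 (32.1 ± 15.02 CPM). Cxcr4 was highest in the cycling Cd226hi cells (C4; 37.5 ± 4.34 CPM), ahead of C5 (25.3 ± 5.17 CPM) beyond the spread, and C4 held 265 of 456 UMIs. Ccr8 was at most 9.29 ± 0.519 CPM (C4), and Ccr9 at most 14.9 ± 8.33 CPM in naive cells (C7), from 6 UMIs.

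**Figure D3:**
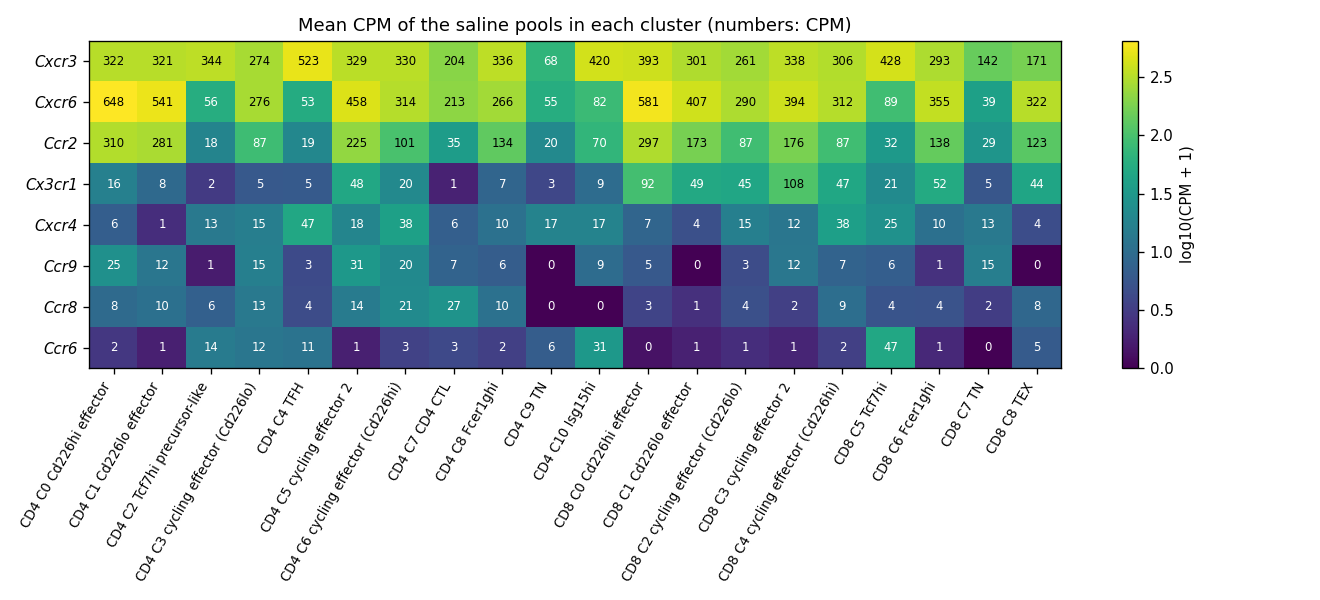
Mean level of each receptor (rows) in the CD4+ and CD8+ clusters with enough cells (columns) in the saline group; numbers are CPM and colour is log10(CPM + 1). Cxcr6 and Ccr2 were brightest in the C0 effector clusters, Cxcr3 in CD4+ C4 and CD8+ C5, Cxcr4 in CD4+ C4 and C6 and CD8+ C4, and Ccr6 in CD8+ C5.

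Within clusters, changes were tested over pools that held 10 or more cells of it, for receptors past the filter on low counts. A sparse receptor passes that filter through the groups where it is high, so the clusters tested are not all clusters fitted. A receptor level helped to place a cell in its cluster, so these values describe cells that kept the cluster's profile. At 50 mg/kg, 38 receptor-by-cluster tests in CD4+ cells gave 13 higher and 10 lower, while 30.2% of all gene-by-cluster tests passed (14.8% higher, 15.4% lower). In CD8+ cells 38 tests gave 17 higher and 10 lower, where 43.4% passed (21.3% higher, 22.1% lower). At 5 mg/kg, 5 were higher and 2 lower of 38 in CD4+ cells, where 13.0% of all tests passed (7.49% higher, 5.53% lower), and 8 higher and 3 lower of 45 in CD8+ cells, where 20.4% did (11% higher, 9.46% lower).

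Ccr2 was higher at 50 mg/kg in 9 of 9 CD4+ clusters tested and 7 of 8 CD8+ clusters, and in 6 and 4 of them under library size scaling. The change ran from 0.27 to 2.46 in CD8+ clusters. In CD4+ clusters it ran from 0.39 ± 0.14 in C5, where library size scaling gave -0.02, to 2.02 ± 0.33 in the Isg15hi cells of C10 (edgeR adjusted p = 3.2e-05). It was 1.74 ± 0.33 in the Tcf7hi precursor-like CD4+ cells of C2, from 17.9, 15.4 and 19.5 CPM with saline to 23.8, 54.9 and 67.3 CPM. The effector cells of CD4+ C0, highest with saline, held 306, 308 and 316 CPM and then 359, 281 and 317 CPM, an overlap in CPM beside 0.50 ± 0.10 on the TMM scale and 0.03 under library size scaling. The exception in CD8+ cells was the naive cluster C7 (0.27 ± 0.62, edgeR adjusted p = 0.925), and in CD8+ C3 the change was 0.34 ± 0.09 with TMM and -0.12 with library size scaling. Some of these rises rested on single pools. In CD4+ cells C5 was lost without saline pool 2 (0.33), C6 (1.66) without 50 mg/kg pool 1 (0.88) and C8 (0.87) without saline pool 2 (0.60). In CD8+ cells C6 (0.69) was lost without saline pool 2 (0.53) or 50 mg/kg pool 2 (0.55), and C8 (0.72) without saline pool 1 (0.65) or 2 (0.68) or 50 mg/kg pool 2 or 3 (0.58 each).

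Cx3cr1 was lower at 50 mg/kg in 2 of 2 CD4+ and 7 of 7 CD8+ clusters tested, under both scalings. The clusters fitted were 11 and 8, and Cx3cr1 entered the test mainly through its UMIs in the other groups. A count of falls was thus largely fixed by the filter, and the sizes carry the description. CD8+ C0 cells held 117, 84.8 and 73.0 CPM in the saline pools and 11.3, 7.74 and 10.6 CPM at 50 mg/kg (-2.65 ± 0.24, edgeR adjusted p = 2.84e-15). CD8+ C3 cells went from 121, 97.4 and 105 CPM to 6.87, 9.56 and 4.38 CPM (-3.60 ± 0.19, edgeR adjusted p = 7.93e-16). The fall was thus present in non-cycling and cycling effector cells. In CD4+ C5, 57 UMIs with saline became 1 UMI.

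Cxcr3 rose in 3 of 10 CD4+ clusters and 6 of 8 CD8+ clusters at 50 mg/kg, and in 2 and 4 under library size scaling. CD4+ C0 cells held 344, 302 and 320 CPM in the saline pools, 353, 352 and 320 CPM at 5 mg/kg and 516, 513 and 506 CPM at 50 mg/kg. The 5 mg/kg pools overlapped saline in CPM and the 50 mg/kg pools did not (1.13 ± 0.10, edgeR adjusted p = 2.75e-14; 0.66 under library size scaling). The exhausted CD8+ cells of C8 (1.06 ± 0.21) and CD8+ C0 (0.94 ± 0.08) had the next largest rises. Ccr9 fell in 3 of 4 CD4+ clusters tested, C0 (-1.964 ± 0.46), C3 (-2.63 ± 0.67) and C5 (-1.56 ± 0.54), and did not pass in either CD8+ cluster tested, C2 (0.94 ± 0.50) and C3 (0.49 ± 0.33). Ccr9 in C3 was lost without saline pool 3 (-1.76), and in C5 without saline pool 2 (-0.87) or 50 mg/kg pool 3 (-0.998; -2.52 and past the threshold without 50 mg/kg pool 1), and the rise of Cxcr3 in CD8+ C6 (0.55) without 50 mg/kg pool 2 (0.38).

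**Figure D4:**
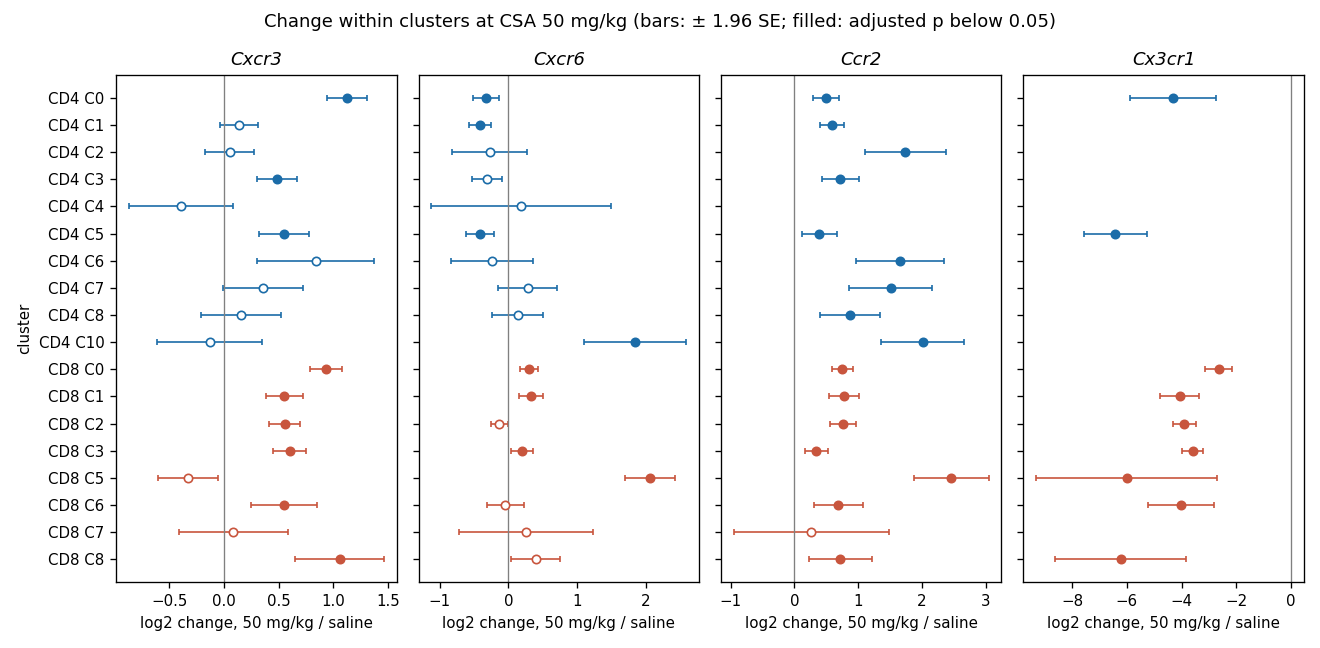
Log2 change from saline to 50 mg/kg (x axis, TMM scale) of Cxcr3, Cxcr6, Ccr2 and Cx3cr1 within each cluster tested; bars are 95% intervals and filled points have an edgeR adjusted p under 0.05. Ccr2 lay above 0 and Cx3cr1 below 0 in every cluster shown, while Cxcr6 lay on both sides; under library size scaling Ccr2 in CD4+ C5 and CD8+ C3 and Cxcr6 in CD8+ C0 and C3 change side.

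Cxcr6 changed in opposite directions among clusters. CD4+ effector clusters fell, C0 by 0.33 ± 0.10, C1 by 0.41 ± 0.08 and C5 by 0.41 ± 0.10 on the log2 scale, and these falls were present under library size scaling. C10 cells rose from 26.8, 124 and 94.6 CPM to 404, 288 and 240 CPM (1.85 ± 0.38, edgeR adjusted p = 0.000402). The largest rise was in the Tcf7hi CD8+ cells of C5, from 85.7, 80.7 and 101 CPM in the saline pools and 40.1, 60.5 and 61.7 CPM at 5 mg/kg to 344, 258 and 250 CPM at 50 mg/kg (2.06 ± 0.19, edgeR adjusted p = 8.12e-11; 1.61 under library size scaling). Rises in CD8+ C0 (0.30) and C3 (0.19) turned to -0.27 and -0.26 under library size scaling. The call in C3 was also lost without saline pool 1 (0.19) or 2 (0.11) or 50 mg/kg pool 1 or 3 (0.19 each), and that in CD8+ C1 (0.33) without saline pool 2 (0.24).

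The Tcf7hi CD8+ cells of C5 changed most receptors at once at 50 mg/kg, in 76 cells against 449 with saline. Ccr2 went from 27.7, 19.7 and 48.8 CPM to 90.9, 142 and 158 CPM (2.46 ± 0.30, edgeR adjusted p = 5.54e-08), as Cxcr6 did above. Ccr6 went from 45.4, 39.5 and 57.2 CPM, or 74 UMIs, to 1 UMI in 3 pools (edgeR adjusted p = 0.000813), and 70 UMIs were found at 5 mg/kg. Cx3cr1 went from 33 UMIs to 0, and Cxcr4 from 40 to 2 UMIs. The call of Cxcr4 (-2.37) was lost without 50 mg/kg pool 2 (-2.001) or 3 (-2.31), and that of Cx3cr1 without 50 mg/kg pool 3, where the level at 50 mg/kg is 0 in all pools. Cxcr3 was 406, 432 and 446 CPM in the saline pools and 208, 311 and 253 CPM at 50 mg/kg, not past the threshold with TMM (-0.33 ± 0.14, edgeR adjusted p = 0.0635) and lower under library size scaling. Tcf7, which names the cluster, was at 483 CPM in C5 with saline and 147 CPM at 50 mg/kg, against 46.9 and 22.97 CPM in the other CD8+ clusters, so the label rests on a lower level there.

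Regulatory and Th17 cells were too few per pool to test, and their UMIs were summed per group with exact 95% Poisson intervals that cover counting error only. Treg cells (C11; 20, 25 and 59 cells) held Foxp3 at 459 to 801 CPM in every group, while the other Treg markers were lower at 50 mg/kg than with saline, Il2ra at 161 against 758 CPM, Ikzf2 at 233 against 844 CPM and Ctla4 at 271 against 1087 CPM. Their Ccr8 was 229 CPM (131 to 372) with saline, 553 CPM (414 to 723) at 5 mg/kg and 3.15 CPM (0.0799 to 17.6) at 50 mg/kg, from 16, 53 and 1 UMIs. At 5 mg/kg these 25 cells held 27.9% of the Ccr8 UMIs of CD4+ cells. Ccr9 was 157 CPM in the first 2 groups and 0 UMIs in 59 cells at 50 mg/kg, where 3 counts would be 9.46 CPM. Ccr2 was 258 CPM (153 to 407), 177 CPM (103 to 284) and 909 CPM (807 to 1020). In the cells of this cluster Ccr2 was thus high and Ccr8 and Ccr9 nearly absent at 50 mg/kg.

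Th17 cells (C12; 30, 32 and 23 cells) had Ccr6 at 182 CPM (108 to 287) with saline, 61.5 CPM (28.1 to 117) at 5 mg/kg and 19.7 CPM (2.39 to 71.3) at 50 mg/kg. Cxcr6 in the same cells was 647, 710 and 848 CPM and Ccr2 232, 328 and 296 CPM. Il17a, Il23r and Il1r1 were all at 0 UMIs in its cells at 50 mg/kg, so the Th17 label lacks these markers there. Likewise Cxcr5 of the follicular helper cluster C4 was 219, 142 and 9.15 CPM and Bcl6 86.6, 62.8 and 0 CPM, and C4 fell from 733 to 45 cells. At 50 mg/kg these values rest on 1 and 0 UMIs. Pdcd1 was also at 1 UMI there, while Icos was at 229 CPM (25 UMIs) against 156 CPM in the other CD4+ clusters.

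The shares of clusters moved between groups, so levels were also computed with each cluster at its share in the saline pools. Under fixed shares, the log2 ratio of mean CPM at 50 mg/kg to saline was 0.71 for Ccr2 in CD4+ and 0.74 in CD8+ cells, against 0.67 and 0.47 as observed. Cx3cr1 was at -6.70 and -2.15 against -6.54 and -3.85, and Ccr6 at -3.44 and -4.97 against -3.18 and -4.34. These 3 receptors thus kept their directions with shares held fixed. Cxcr4 moved closer to 0, from -1.85 to -0.98 in CD4+ and from -1.68 to -0.45 in CD8+ cells. Its main saline clusters shrank, CD4+ C4 from 733 to 45 cells, CD4+ C6 from 443 to 34 and CD8+ C4 from 1015 to 20. Ccr8 in CD8+ cells was at -0.91, with overlapping pools, against -3.92. Under fixed shares CD8+ C4 carried 31.5% of the weight, its mean share of saline UMIs, but had only 20 cells at 50 mg/kg. Those cells held 1 UMI of Ccr8, 5 of Cxcr4 and 5 of Cx3cr1, so the CD8+ ratios of these receptors rest on few counts. Single pools at 50 mg/kg set some of these ratios, since leaving out pool 2 gave -0.13 for Cxcr4 and -0.33 for Ccr8 in CD8+ cells and -9.38 for Cx3cr1 in CD4+ cells, and leaving out pool 1 or 3 gave -0.41 or -4.49 for Ccr8 in CD8+ cells. Pools did not overlap for 7 of 8 receptors in CD4+ and 5 of 8 in CD8+ cells under fixed shares, while observed CPM did not overlap for 76.2% and 79.2% of all genes. An exact two-sided permutation test of 3 against 3 pools cannot give a p under 0.1.

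**Figure D5:**
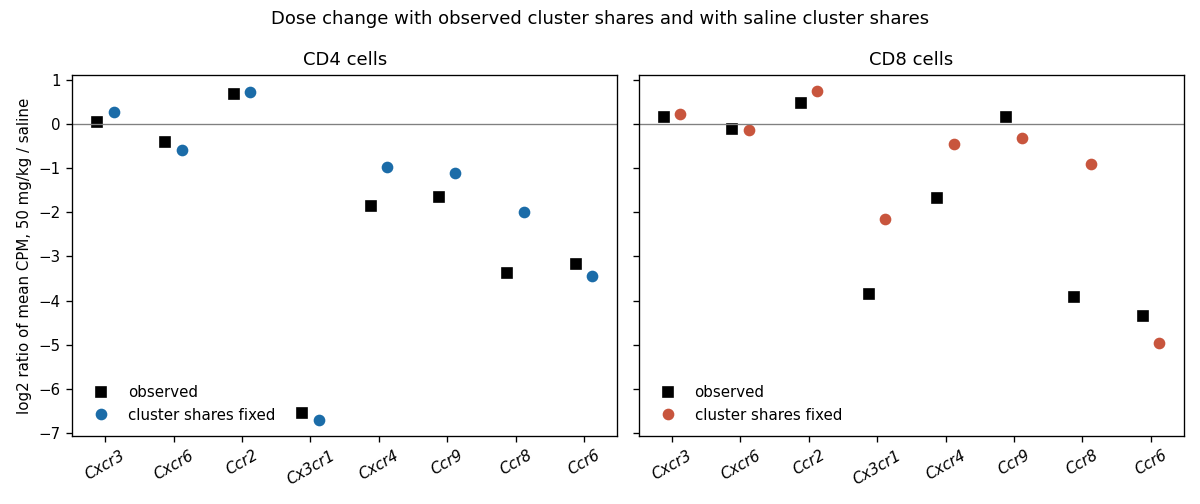
Log2 ratio of mean CPM at 50 mg/kg to saline (y axis) for each receptor (x axis), as observed (squares) and with every cluster at its saline share (circles). The symbols lie close for Ccr2 and Cxcr6 in CD4+ cells. They lie furthest apart for Cxcr4 and Ccr8 in both lineages and for Cx3cr1 in CD8+ cells.

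Cells were also split by clonotype, as expanded (at least 2 cells with the same amino acid clonotype in a pool and lineage) or single, and the classes were compared with pool as a block. Each pool had 127 to 247 expanded and 526 to 899 single CD4+ cells, and 130 to 487 expanded and 435 to 862 single CD8+ cells. Over the 9 pools of CD4+ cells, Ccr6 had a lowest, median and highest level of 0, 0 and 2.13 CPM in expanded cells (3 UMIs) and of 0.484, 4.30 and 15.1 CPM in single cells (144 UMIs), and it was higher in expanded cells in 0 of 9 pools. Ccr9 was 1.51, 3.26 and 9.73 CPM in expanded and 1.63, 16.9 and 26.0 CPM in single cells. Cxcr6 was 259, 397 and 485 CPM in expanded and 231, 284 and 327 CPM in single cells, higher in expanded cells in 8 of 9 pools. Over the 9 pools together, the gut and Th17 receptors were thus lower, and the effector receptor Cxcr6 higher, in expanded CD4+ clonotypes. With saline Cxcr6 was 406, 342 and 452 CPM in expanded and 316, 260 and 319 CPM in single cells. At 50 mg/kg the classes were closer, at 260, 287 and 259 CPM against 264, 243 and 231 CPM. Ccr9 was higher in expanded cells in pool 2 at 50 mg/kg (7.14 against 1.63 CPM). The log2 difference was -3.71 ± 0.52 for Ccr6 (edgeR adjusted p = 6.37e-06), -1.56 ± 0.31 for Ccr9 (edgeR adjusted p = 0.000514) and 0.34 ± 0.05 for Cxcr6 (edgeR adjusted p = 7.50e-06), 3 of 8 receptors against 17.6% of 9750 genes. In CD8+ cells 1 of 8 passed, against 14% of 9911 genes. It was Ccr2, at 59.6, 92.6 and 203 CPM in expanded and 97.0, 146 and 199 CPM in single cells (-0.38 ± 0.07, edgeR adjusted p = 0.000455), lower in expanded cells in 7 of 9 pools. Both exceptions were at 50 mg/kg, where the pools held 179, 203 and 133 CPM in expanded and 168, 199 and 168 CPM in single cells, while the 3 saline and 3 low-dose pools were all lower in expanded cells. Whether any of these differences between expanded and single cells varied with dose was not tested.

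TEa cells, all of 1 specificity, were counted apart (123, 130 and 27 cells) with exact Poisson intervals. Their Ccr2 was 138 CPM (108 to 173), 154 CPM (128 to 185) and 135 CPM (91.7 to 192), while other CD4+ cells held 144, 105 and 230 CPM. The interval at 50 mg/kg lay below the level of the other CD4+ cells, from 31 UMIs. Cxcr3 was 385, 299 and 339 CPM and Cxcr6 300, 333 and 200 CPM in TEa cells. Cx3cr1 and Ccr8 had at most 3 UMIs in any group of TEa cells.

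Shares of cells with a UMI were compared after thinning every cell to 2000 UMIs, which left out 395, 452 and 80 CD4+ and 121, 83 and 8 CD8+ cells. Ccr2 was found in 21.4%, 17.5% and 32.0% of thinned CD4+ cells with saline, 5 mg/kg and 50 mg/kg (28.8%, 29.1% and 56.2% unthinned) and in 21.6%, 17.6% and 29.0% of CD8+ cells (34.1%, 37.9% and 58.7%). Naive CD4+ cells (C9) gave 3.03%, 5.08% and 0% on the thinned scale, a background far below. Cx3cr1 was found in 11.2%, 4.07% and 1.09% of thinned CD8+ cells (19.1%, 12.8% and 2.34% unthinned), with 0%, 1.71% and 0.565% in naive CD8+ cells (C7), so that the share at 50 mg/kg was near background. Cxcr3 was found in 44.6%, 39.0% and 44.8% of thinned CD4+ cells (57.9%, 59.2% and 73.7% before thinning), with 13.2%, 13.1% and 2.44% in naive CD4+ cells. Cells with UMIs of 2 or more of the 8 receptors made up 28.9% to 34.6% of thinned CD4+ cells in the saline pools, 23.1% to 28.4% at 5 mg/kg and 31.2% to 34.9% at 50 mg/kg, and 37.1% to 40.6%, 25.2% to 32.2% and 35.3% to 41.5% of CD8+ cells. The low dose therefore had the fewest such cells in both lineages, without overlap with either other group.

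Genes around the receptors were taken from lists. Of 13 ligands of these receptors, 4 could be tested, and 0 rose at 50 mg/kg, 3 fell in CD4+ and 4 in CD8+ cells, where 35.8% and 36.9% of all genes fell (4 and 4 under library size scaling). Ccl1, the ligand of CCR8, was at 186 ± 36.0 CPM in CD4+ saline cells, 363 ± 71.2 CPM with the low dose and 4.12 ± 5.03 CPM with the high dose (-5.09 ± 0.32, edgeR adjusted p = 8.41e-12). Ligand and receptor were thus both lowest at 50 mg/kg. In CD8+ cells Ccl1 went from 23.7 ± 5.48 CPM to 0.127 ± 0.131 CPM (4 UMIs). Ccl25, the CCR9 ligand, fell by 1.45 ± 0.17 in CD4+ cells on the log2 scale. Among 15 other chemokine receptors, 7 were tested in CD4+ cells, with 3 higher and 1 lower, and 6 in CD8+ cells, with 2 higher and 2 lower. Under library size scaling these were 0 higher and 3 lower, and 1 higher and 3 lower. Cxcr5, which leads cells to B cell follicles, went from 56.9 ± 8.73 to 1.84 ± 0.601 CPM in CD4+ cells.

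Signalling genes downstream of the receptors moved both ways, 17 higher and 12 lower of 31 tested in CD4+ cells and 15 higher and 12 lower in CD8+ cells, with list medians of 0.30 and 0.24. The shares of all genes were 34.7% higher and 35.8% lower in CD4+ and 37.1% and 36.9% in CD8+ cells, and under library size scaling the list split into 10 higher and 17 lower, and 7 higher and 18 lower, with medians of -0.14 and -0.29. Rasgrp2, an activator of Rap1 in integrin adhesion, rose by 1.30 ± 0.05 in CD4+ and 1.03 ± 0.05 in CD8+ cells. Rgs16, which switches off G protein signals, fell by 1.49 ± 0.16 and 2.69 ± 0.16 on the log2 scale. Elmo1 (-0.80) and Dock2 (-0.74), which activate Rac in moving cells, fell in CD4+ cells, as did Prex1 (-0.92) in CD8+ cells. Of 16 homing, adhesion and egress genes, 9 rose and 5 fell of 15 tested in CD4+ cells, and 10 rose and 5 fell of 16 in CD8+ cells, where 70.5% and 74.0% of all genes passed in either direction. Under library size scaling 7 rose and 7 fell in CD4+ cells and 6 rose and 8 fell in CD8+ cells. Itga4, the integrin subunit that binds vascular and gut addressins, fell from 1939 ± 55.4 to 400.0 ± 49.6 CPM in CD8+ cells and by 1.55 ± 0.06 on the log2 scale in CD4+ cells. S1pr4, a sphingosine 1-phosphate receptor, rose by 0.88 in CD4+ and 0.80 in CD8+ cells.

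The genes most like each receptor over the 22 clusters were ranked by Pearson correlation of log2(CPM + 5) among 9244 genes, as a description across clusters that share libraries and depth. Id2 (r = 0.904), Hsf4 (0.883) and AC163354.1 (0.880) were closest to Cxcr6. Slc52a3 (0.918), Gna15 (0.905), a G protein subunit, and Adam8 (0.885) were closest to Ccr2, and Ncald (0.897), Pik3cg (0.884) and Itga1 (0.867) to Cx3cr1. Stxbp2 (0.908) led for Cxcr3, Bcl7a (0.893) for Cxcr4, Homez (0.793) for Ccr6 and C1galt1c1 (0.785) for Ccr8. Lztfl1 (0.848), which led for Ccr9, lies on the opposite strand within the annotated span of Ccr9. Among the receptors themselves, Ccr2 and Cxcr6 were most alike (0.679), and Ccr2 and Cxcr4 least (-0.611).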

How the data were processed

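Splenic CD4+ and CD8+ T cells of 3 treatment groups were profiled by droplet 5′ single-cell RNA sequencing with hashtag antibodies and T cell receptor libraries. The authors deposited raw UMI counts per gene and cell after their own filters on cells and genes, with the pool, cluster, clonotype, hashtag counts and TEa mark of each cell. The submitters' processing notes name Cell Ranger, Seurat 3.0.0 and mm10, and the annotation is not given in the sources used here. The deposited fraction of mitochondrial UMIs was checked for range and not used further. The deposited mark for doublets is false for every cell, so doublets had been removed by the authors, and cells with a strong second hashtag were left out as an alternative. The counts of each cell summed to its deposited UMI number in all 21204 cells, and 280 TEa cells were left out.

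Counts were summed per pool, for 3994968 to 7592334 UMIs in CD4+ and 4392100 to 11454636 UMIs in CD8+ cells. Sums were tested with edgeR 4.0.16 in R 4.3.3 (quasi-likelihood, filterByExpr, TMM, all 9 pools in 1 fit), with Benjamini-Hochberg adjustment over all genes tested and a threshold of 0.05. SE is the absolute log2 change divided by the square root of F. Lineages were compared in 1 fit of 18 sums with pool as a block, which also gave the difference of changes. Clusters were fitted where at least 2 pools per group held at least 10 cells, and expanded and single clonotypes with pool as a block. For small groups of cells, counts were given with exact Poisson intervals (95%), which cover counting error only, and 3 counts served as the floor. On simulated counts, 90% and 99% of changes of log2 1 and 2 were recovered in CD4+ cells at 50 mg/kg (10568 genes), 96% and 97% in CD8+ cells (10841 genes) and 79% and 95% for the difference between lineages (11001 genes). False calls made up 6.9%, 3.5% and 5.4% of calls. Only 100 genes were changed at each size, as many up as down, so these simulations cannot address the choice of scaling.

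Named genes are the 8 receptors. From each of 4 lists (other receptors, ligands, signalling, homing) the 3 largest rises and 3 largest falls past the threshold at 50 mg/kg with a mean of at least 10 CPM could be named, of which examples are printed. For receptors with at least 100 UMIs, the genes of highest correlation over 22 clusters among genes with at least 500 UMIs were named. Foxp3, Il2ra, Ikzf2, Ctla4, Il17a, Il23r, Il1r1, Bcl6, Cxcr5, Icos, Pdcd1 and Tcf7 check cluster labels. The receptors and lists were chosen with earlier results of these data known. Alternatives were DESeq2 1.42.0, library size scaling, no filter, the compared groups alone, the pool number as a block, TEa cells included, cells outside the cycling clusters, cells of 4000 to 8000 UMIs, cells without any UMI of myeloid or B cell markers, cells whose second hashtag was under 0.5 of the first, 20 cells per pool and cluster, 3 cells per clonotype and leaving out each pool. Cells without a UMI of 8 defining myeloid and B cell markers, and cells whose strongest hashtag was that of their pool, were added after seeing the data.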

Additional observations from a re-analysis of the deposited data

Results flagged for a closer look

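For 4 of the 8 receptors, the change from saline to 50 mg/kg CSA differed between the lineages by a test of the difference itself, the interaction term of the joint edgeR fit with pool as a block. The difference is given as CD8+ minus CD4+ on the log2 scale. Ccr9 differed by 1.88, with a change of -1.25 in CD4+ and 0.67 in CD8+ cells when each lineage was fitted alone. Cx3cr1 differed by 2.59, with 3 UMIs left in CD4+ cells at 50 mg/kg. Cxcr6 differed by 0.34 and Cxcr3 by 0.19. The difference of Cxcr3 did not pass under library size scaling (0.13), with DESeq2 (0.21), in cells of 4000 to 8000 UMIs (0.28), without saline replicate 1 or 3 (0.18 each) or without CSA 50 mg/kg replicate 2 (0.15). Ccr9, Cx3cr1 and Cxcr6 passed in each of these settings.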

How the results depend on the processing

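For single receptors in a lineage, between lineages or by clonotype, 603 values kept their direction and side of the threshold under other settings, 14 newly passed, 27 no longer passed and 16 changed direction, with 589, 2, 14 and 7 when 1 pool was left out. Within clusters, 225 kept both, 17 no longer passed and 4 changed direction, and with 1 pool left out 411 kept both and 24 no longer passed. Depth limits Ccr6, Ccr8, Ccr9 and Cx3cr1, where few UMIs remain at 50 mg/kg. The cause of the changes below was not tested.

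Among cells without a UMI of a myeloid or B cell marker, receptors past the threshold in CD8+ cells numbered 1 at 5 mg/kg (3 in all cells), 4 at 50 mg/kg (8) and 4 for 50 against 5 mg/kg (7), and Cxcr4 turned to 0.060 in CD4+ cells at 5 mg/kg and 0.074 in CD8+ cells for 50 against 5 mg/kg. Ccr6 and Ccr8 were too low to be tested there at 50 mg/kg in CD8+ cells. With the 8 defining markers, added after seeing the data, 8 receptors passed in CD8+ cells at 50 mg/kg. Genes past the threshold fell from 5467 to 2652, from 7454 to 4886 and from 4353 to 2001 in CD4+ cells (5 mg/kg, 50 mg/kg, 50 against 5), and from 6523 to 2853, 8024 to 4724 and 4443 to 1414 in CD8+ cells.

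Under library size scaling 5 receptors passed in CD8+ cells at 5 mg/kg. In CD4+ cells at 5 mg/kg Cxcr3 was -0.28, Ccr8 -0.064 and Cxcr6 -0.035, and at 50 mg/kg Cxcr6 was -0.40. In CD8+ cells at 5 mg/kg Cxcr3 was -0.21, Ccr9 -0.18, Cxcr6 -0.20 and Ccr6 -0.033, and at 50 mg/kg Cxcr6 was -0.13. Ccr2 was -0.019 in CD4+ C5 and -0.12 in CD8+ C3, and Cxcr6 -0.27 in CD8+ C0 and -0.26 in C3.

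In cells of 4000 to 8000 UMIs 5 receptors passed in CD8+ cells at 5 mg/kg, where Ccr2 was 0.42, and in CD4+ cells at 5 mg/kg Ccr2 was 0.21 and Ccr6 0.11. Genes past the threshold numbered 2220 (4353) for CD4+ cells at 50 against 5 mg/kg, 2404 (4445), 1981 (3772) and 1933 (3342) for CD8+ against CD4+ cells with saline, 5 and 50 mg/kg, and 70 (402) and 820 (2173) for the differences of the changes. DESeq2 gave 1933, 1824, 1382, 264 and 658 in these last 5 comparisons, 3 receptors (5) for CD8+ against CD4+ cells at 50 mg/kg, and 4 (7) and 7 (11) receptor-by-cluster calls in CD4+ and CD8+ cells at 5 mg/kg. Its missing adjusted p-values were left out. Outside the cycling clusters, Cxcr4 was 0.33 in CD8+ cells at 5 mg/kg, Ccr9 -0.38 for 50 against 5 mg/kg, and 2836 genes passed in the latter (4443). With cluster shares fixed at those of all 9 pools, Cxcr3 was -0.032 in CD8+ cells at 5 mg/kg and Ccr9 0.17 at 50 mg/kg.

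Leaving out 1 pool gave 3 to 5 receptors for CD8+ against CD4+ cells at 50 mg/kg (3 without CSA 50 mg/kg replicate 2), 3 to 7 cluster calls in CD4+ cells at 5 mg/kg (3 without saline replicate 2 or 3 or CSA 5 mg/kg replicate 3) and 4 to 12 in CD8+ cells. With shares fixed, 2 to 4 receptors did not overlap in CD4+ cells at 5 mg/kg (2 in all pools) and 3 to 6 in CD8+ cells (3 in all pools). In CD4+ cells Ccr6 ran from -0.55 to 0.13 at 5 mg/kg and Cxcr6 from -0.033 to 0.085 at 50 mg/kg, and in CD8+ cells at 5 mg/kg Ccr8 from -0.44 to 0.069, Ccr2 from -0.045 to 0.039 and Ccr6 from -0.12 to 0.64. For the difference of the changes at 5 mg/kg 167 to 479 genes passed, lowest without saline replicate 2.

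Pools of the same number did not deviate together (r -0.085 to 0.072), so the numbers were not taken to pair samples. With the pool number as a replicate block, 7 receptors and 7500 genes passed in CD4+ cells at 50 mg/kg and 8 and 8041 in CD8+ cells, and 3 receptors in each lineage at 5 mg/kg (5420 and 6459 genes), and no receptor call changed. Without the replicate block of the joint fit, 3 receptors (4) differed between lineages with saline and 219 genes (402) for the change at 5 mg/kg, and 3 and 1 receptors passed by clonotype in CD4+ and CD8+ cells.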
